A study of Caenorhabditis elegans with 2 samples.

Results

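The *col* genes are the numbered series of collagen genes of *Caenorhabditis elegans*, and most of their products are known or predicted parts of the cuticle, the outer skeleton of the worm. All WBcel235 protein-coding genes whose name starts with col- were taken, which gave 156 of 19973 nuclear protein-coding genes (Ensembl release 115). They lay on every nuclear chromosome, 21 on I, 24 on II, 12 on III, 41 on IV, 31 on V and 27 on X. For each gene the value was the highest signal of a chromatin immunoprecipitation (ChIP-seq) peak whose summit lay between the base 1000 bp before and the base 200 bp after any of its annotated 5′ ends. This stretch is called the promoter window below. The immunoprecipitated protein was ZTF-11 with an eGFP tag, a green fluorescent protein.

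There was 1 group of whole L4 larvae, the last larval stage, with males and females pooled and 2 biological replicates. Both came from strain OP236, whose genotype is *unc-119(ed3)* III with the transgene *wgIs236*. The labels describe it as 1 strain with an insertion that targets *ztf-11*, and name no promoter. All larvae carried the transgene, and the lists hold no second genotype, stage or treatment. Whole animals were used, so the tissue in which a site was occupied is not resolved.

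Cuticle collagens are made by the epidermis, here called the hypodermis, in waves timed to each molt. Each chain carries repeats of glycine and 2 further residues (Gly-X-Y), which let 3 chains wind into a helix, and after secretion the chains are trimmed and crosslinked. ZTF-11 is the *C. elegans* member of the Myt1 family of zinc finger proteins, whose members repress genes of other fates in cells that become neurons. Proteins of this family bind a core of AAGTT, often within AAAGTTT.

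The annotated proteins matched the label. With the annotated reading frames, 155 of the 156 genes coded for 20 or more Gly-X-Y triplets, with a median of 51. The exception was *col-17*, which had 0 in the frame of the gene model used and 51 when the same coding bases were read from the third base. Proteins had a median of 304 residues and ranged from 154 to 740. Gene bodies had a median length of 1220 bp, against 2038 bp in other genes, and 90.5% of the body was exon in the median *col* gene. A few members are known to lie outside the cuticle, such as *col-99*, which encodes a transmembrane collagen.

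The authors' lists gave 47 thresholded peaks, 30000 relaxed peaks on the pooled replicates, 30000 on replicate 1 and 22869 on replicate 2. The authors name the pooled relaxed list as peaks and background. Its −log10 q values went down to 0.0352, and those of replicate 1 to 0.0262. A peak in a relaxed list is therefore a candidate, and a share of genes with a peak is not a share bound by ZTF-11. The authors' −log10 q values went up to 2.12 for pooled peaks and up to 0.629 for replicate 1, but lay between 2.58 and 3.57 for replicate 2. The 3 relaxed lists were therefore read by rank within each list. Depth cannot be read from these lists, and the exact binomial 95% intervals below cover the counting of genes only. Median G and C content within 100 bp of all summits was 35.8% in the pooled list, 33.8% in replicate 1 and 43.3% in replicate 2.

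The sequences under the pooled peaks of *col-42*, *col-34* and *col-38* are given here. Among *col* genes with overlapping replicate peaks in the window, these had the highest pooled signal. The strongest pooled peak of any *col* window lay upstream of *col-42* at chrV:18638029-18638308 (ce11, plus strand, the strand of the gene). It is shown with each copy of the hexamer GCCTAA, or its complement TTAGGC, in capitals. TTAGGC is the repeat of *C. elegans* telomeres. The peaks of *col-34* at chrIV:4244728-4245007 and *col-38* at chrII:8569352-8569631 (both on the minus strand, as the genes are) had overlapping peaks in both replicates. They are shown with the AAGTT core, on either strand, in capitals.
col-42: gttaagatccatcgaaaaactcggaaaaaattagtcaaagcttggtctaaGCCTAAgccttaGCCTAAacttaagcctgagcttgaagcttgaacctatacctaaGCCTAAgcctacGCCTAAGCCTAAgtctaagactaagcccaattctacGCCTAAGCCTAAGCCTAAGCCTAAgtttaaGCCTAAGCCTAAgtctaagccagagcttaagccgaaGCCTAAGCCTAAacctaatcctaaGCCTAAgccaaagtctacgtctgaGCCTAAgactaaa
col-34: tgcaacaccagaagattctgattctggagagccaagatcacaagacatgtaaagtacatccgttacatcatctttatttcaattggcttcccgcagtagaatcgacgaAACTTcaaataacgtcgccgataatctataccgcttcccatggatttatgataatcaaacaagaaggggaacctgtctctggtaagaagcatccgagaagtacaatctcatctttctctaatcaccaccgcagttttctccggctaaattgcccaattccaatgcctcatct
col-38: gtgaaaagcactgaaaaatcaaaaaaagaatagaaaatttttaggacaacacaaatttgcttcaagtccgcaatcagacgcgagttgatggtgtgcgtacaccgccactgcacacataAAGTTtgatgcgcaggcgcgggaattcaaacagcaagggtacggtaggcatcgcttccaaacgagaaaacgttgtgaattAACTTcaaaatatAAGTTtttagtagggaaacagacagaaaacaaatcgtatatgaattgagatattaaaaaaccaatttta

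The pooled *col-42* peak held 15 copies of the hexamer in 280 bp. Of the 30000 pooled peaks, 91 (0.303%) held 5 or more copies, and 2 of those were among the 1000 strongest. The other *col* windows with a copy under a pooled peak were those of *col-99* and *col-104*, with 1 copy each. This search was chosen after the sequence had been seen. The core AAGTT appeared once under the *col-34* peak and 3 times under that of *col-38*. The replicate 2 summit of *col-34*, at position 4244677, lay outside the stretch shown.

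No *col* gene had a thresholded peak in its window. The count was 0 of 156, which allows a share of up to 1.92% by the limit of 3 counts, or up to 2.34% by the exact interval, and 35 of all 19973 genes (0.175%) had one. Among the 1000 strongest pooled peaks, 1 lay in a *col* window (0.641%, interval 0.0162 to 3.52), against 1.93% of other genes with windows of like length and 2.21% of all genes. That gene was *col-42*. Like length means a window within 5% of the member's own, since longer windows hold more peaks.

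In the pooled relaxed list, 56 of 156 *col* genes had a peak, or 35.9% (interval 28.4 to 44), against 36% of like-length genes and 39.1% of all genes. The difference, *col* minus like-length genes, was -0.14 percentage points. In replicate 1 the count was 49, or 31.4% (24.2 to 39.3), against 36.2% of like-length genes and 39.3% of all genes. In replicate 2 it was 53, or 34% (26.6 to 42), against 24.9% of like-length genes and 28.1% of all genes. The replicates thus lay on opposite sides of the like-length share, and in replicate 2 that share was below the interval. When the other genes were also matched to within 2 percentage points of G and C in the window, the *col* shares of 35.9%, 31.4% and 34% stood against 36.6%, 35.1% and 28.2% in the pooled, replicate 1 and replicate 2 lists, each inside its interval.

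**Figure D1:**
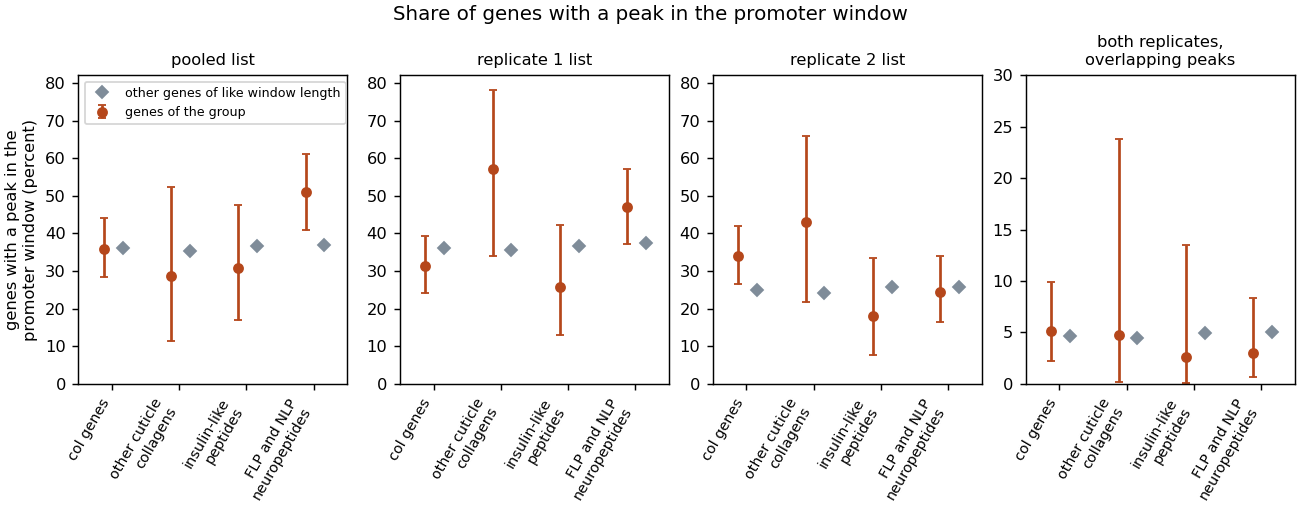
Percent of genes whose promoter window held a peak, for *col* genes and 3 other gene groups (circles, exact 95% intervals) and for other genes of like window length (diamonds), in each list and for overlapping peaks of both replicates; the last panel has its own axis. The *col* genes stand at 35.9% against 36% in the pooled list, at 31.4% against 36.2% in replicate 1 and at 34% against 24.9% in replicate 2.

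Signal among *col* genes with a peak was close to that of other genes with a peak. In pooled peaks the median was 7.99 in *col* windows and 8.11 in others. In replicate 1 it was 7.97 in *col* windows and 7.91 in others, and in replicate 2 it was 3.43 in *col* windows and 3.53 in others. The best *col* ranks were 104 in the pooled list, 395 in replicate 1 and 268 in replicate 2. With genes without a peak counted at 0, the mean percentile of *col* genes among like-length genes was 49.5 in the pooled list, 47.3 in replicate 1 and 54.4 in replicate 2, where genes with a 1201 bp window averaged 49.8. The median percentile, 32.7 in the pooled list, is the shared rank of genes without a peak.

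**Figure D2:**
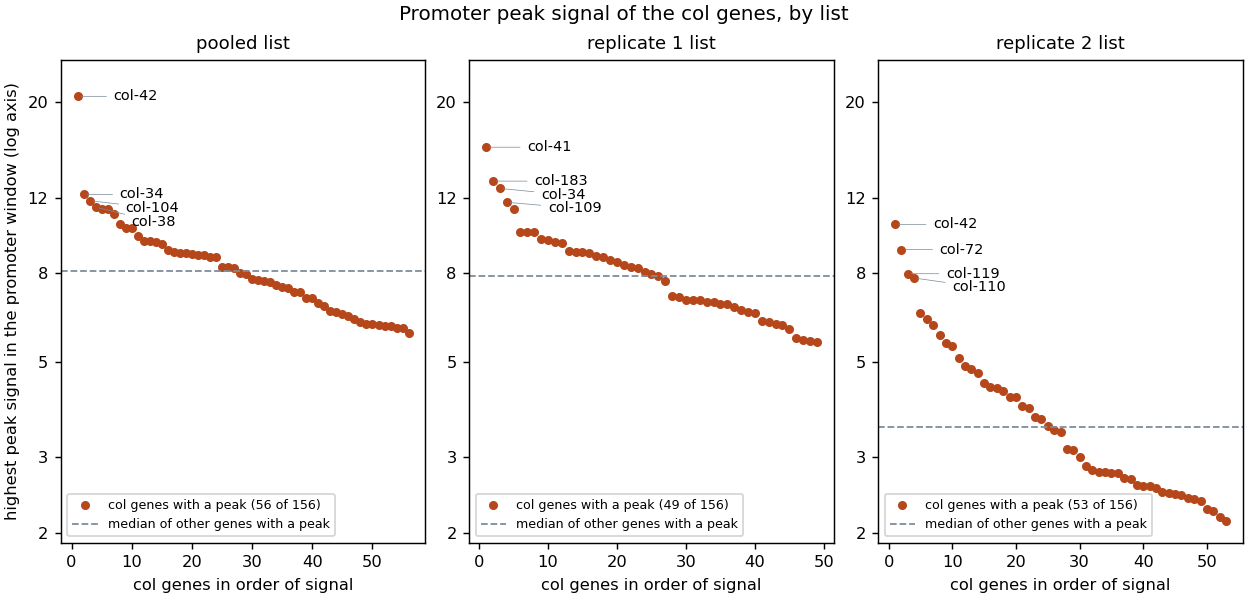
Highest peak signal in the promoter window (log axis) of each *col* gene with a peak, in order of signal, for the pooled, replicate 1 and replicate 2 lists; the dashed line is the median of other genes with a peak. *col-42* stands apart in the pooled list at 20.6, and *col-41* leads replicate 1 at 15.7 with no peak in the other lists.

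The pooled peak of *col-42* had a signal of 20.6 and rank 104, and its summit stood 315 bp before the annotated start, in intergenic sequence. Replicate 2 gave 10.4 there (rank 268) and replicate 1 gave 6.49 (rank 21830), with the summits 47 bp apart. The high pooled rank thus went with a high rank in replicate 2 and a low one in replicate 1. *col-34* had a signal of 12.2 in the pooled list (rank 2141), 12.6 in replicate 1 (rank 1747) and 4.33 in replicate 2 (rank 6509). By the worse of its replicate ranks it stood first among the members with overlapping replicate peaks, and its replicate summits lay 211 bp apart.

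Farther upstream, *col-104* had 11.8 in the pooled list, 9.04 in replicate 1 and no peak in replicate 2. *col-183* had 10.2 in the pooled list and 13.1 in replicate 1 (rank 1362), again with none in replicate 2. *col-158* had 10.2 and 8.61 in the same lists, at a summit in an exon of the neighbouring gene D2023.6. These peaks were read in 1 replicate only.

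Some windows are shared with other genes. *col-50* and *col-51* lie head to head and share 1 pooled peak with a signal of 11.3 and 1 replicate 1 peak with a signal of 10, so the 56 pooled genes rest on 55 peaks. *col-38*, with 11.4 in the pooled list, 8.72 in replicate 1 and 2.59 in replicate 2, shares its window with *rpl-5*, a ribosomal protein gene, and its replicate 1 summit was nearer to *rpl-5*. The pooled *col-38* summit also lay in the non-coding RNA genes F54C9.16 and F54C9.17. *col-8* had 8.73 in the pooled list, 7.97 in replicate 1 and 3.9 in replicate 2, and all these summits were nearest to *rfl-1*. In all, 8 of the 56 strongest pooled peaks also lay in the window of a gene outside the *col* series.

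Others lay within the collagen gene itself. *col-179* had 11 in the pooled list, 6.87 in replicate 1 and 2.76 in replicate 2, with all summits in its own exon 88 to 121 bp downstream of the 5′ end. *col-106* had 10.4 in the pooled list and 6.09 in replicate 2, both in its own exon, while its replicate 1 peak of 5.61 lay 938 bp upstream. *col-119* had 9.79 in the pooled list and 8.78 in replicate 1 at an exon of *pdzd-8*, but its replicate 2 peak of 7.99 (rank 824) lay in its own exon 159 bp downstream. *col-98* had 9.51 in the pooled list, 8.99 in replicate 1 and 4.7 in replicate 2, with summits 82 bp downstream, 657 bp upstream and 8 bp upstream of the 5′ end in that order. A gene's value in several lists is therefore not always the same site.

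Peaks of both replicates that overlapped by 1 bp or more lay in the windows of 8 *col* genes, or 5.13% (2.24 to 9.85), against 4.66% of like-length genes and 5.56% of all genes. Besides *col-42*, *col-34*, *col-38*, *col-179* and *col-8*, these were *col-186*, *col-171* and *col-81*. *col-186* had 6.71 in the pooled list, 6.87 in replicate 1 and 2.77 in replicate 2. *col-171* had 8.96 in the pooled list, 8.24 in replicate 1 and 2.27 in replicate 2. *col-81* had 6.06 in replicate 1 and 3.54 in replicate 2 and no pooled peak. Apart from *col-42* (47 bp) and *col-179* (33 bp), the paired summits lay 166 to 275 bp apart, with usual peak widths of 390 bp in replicate 1 and 196 bp in replicate 2.

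A peak in both replicate lists, overlapping or not, was found for 21 *col* genes (13.5%), against 9.8% of like-length genes and 12.8% of all genes. A peak in neither was found for 75 (48.1%), against 48.7% of like-length genes and 45.4% of all genes. Across the 156 genes Spearman's rho between the replicate signals was 0.15, and among the 21 with both it was 0.305; across other genes rho was 0.0981. Genes are not independent replicates, and most points are at 0 in 1 list or both. In all, 17 *col* genes (10.9%, interval 6.48 to 16.9) had a peak in all 3 lists, against 7.79% of like-length genes and 10.5% of all genes, and 62 (39.7%) had none, against 42.4% of like-length genes.

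**Figure D3:**
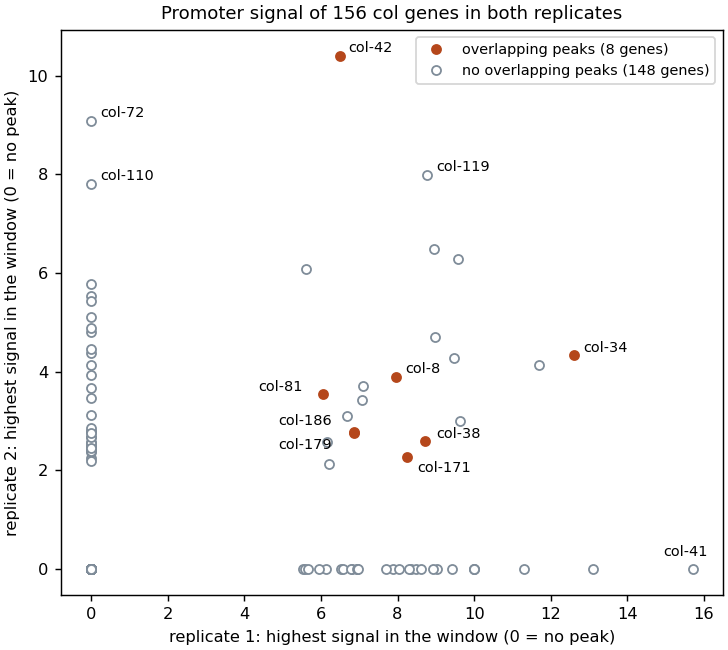
Highest signal in the promoter window in replicate 1 (x axis) and replicate 2 (y axis) for the 156 *col* genes, with 0 for no peak; filled circles are the 8 genes whose replicate peaks overlap. Most genes lie on an axis, and *col-42* is high in replicate 2 and low in replicate 1, while *col-34* is the highest of the 8 in replicate 1.

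Some genes were high in 1 replicate alone. *col-41* had the highest replicate 1 value, 15.7 (rank 395), at a summit 986 bp upstream in an intron of *ucr-2.2*, and had no peak in the pooled list or in replicate 2. In replicate 2, *col-72* had 9.09 (rank 504) and *col-110* had 7.81 (rank 909), and neither had a replicate 1 peak. Their pooled signals were 7.73 and 8.82. These 3 genes were named after their values were seen.

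Genes known from work on the timing of collagen expression gave no common picture. *col-19*, the usual marker of the adult cuticle, had no peak in any of the 3 lists. *col-7*, also known from adults, had 6.94 in replicate 1, at an exon of C15A11.4, and no peak elsewhere. *col-17* had 8.35 in replicate 1 alone. *col-2*, known from the dauer larva, had 8.82 in the pooled list and 6.53 in replicate 1, both nearest to *ndc-80*. *col-10* had a pooled peak of 7.02 alone, and *col-12* had 8.02 in the pooled list and 4.37 in replicate 2 at an exon of *apc-10*. The transmembrane collagen *col-99* had 7.52 in the pooled list, 9.58 in replicate 1 and 6.29 in replicate 2, and its replicate peaks did not overlap.

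Shares varied among chromosomes, and the replicates differed in which. On V, replicate 1 had a peak at 3 of 31 *col* genes (9.68%, interval 2.04 to 25.8), against 37.3% of other genes there, and replicate 2 at 7 (22.6%) against 23.3%. These other genes had windows of any length. On II, replicate 1 had 4 of 24 (16.7%, 4.74 to 37.4) against 36.8%, and replicate 2 had 12 (50%, 29.1 to 70.9) against 27.3%. On III, each replicate had a peak at 8 of 12 (66.7%, 34.9 to 90.1), against 41.2% in replicate 1 and 31.1% in replicate 2. On I, IV and X, the replicate 1 shares were 42.9%, 39% and 33.3%, against 41.8%, 40.9% and 40.2%. The replicate 2 shares there were 23.8%, 34.1% and 25.9%, against 31.8%, 26.2% and 32.7%. Some members lie close together: 50 lie within 5000 bp of another *col* gene, in any orientation, and 10 have windows that overlap another member's.

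Within the window, the replicates placed their *col* summits differently. For the 136 members with 1 annotated 5′ end, and so a window of 1201 bp, replicate 2 had a summit from 0 to 200 bp downstream at 24 (17.6%, interval 11.6 to 25.1), against 6.18% of 14362 other such genes. Replicate 1 had one there at 4 (2.94%, 0.807 to 7.36), against 6.45%. In the 500 bp upstream, the shares were 12.5% against 9.72% in replicate 2, 9.56% against 16.7% in replicate 1 and 11% against 16.7% in the pooled list. In the farther 500 bp upstream the shares were 6.62% against 9.71% in replicate 2, 18.4% against 14.8% in replicate 1 and 16.9% against 14.5% in the pooled list, the other direction in each. The higher replicate 2 share of the *col* windows thus lay mostly inside the genes.

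**Figure D4:**
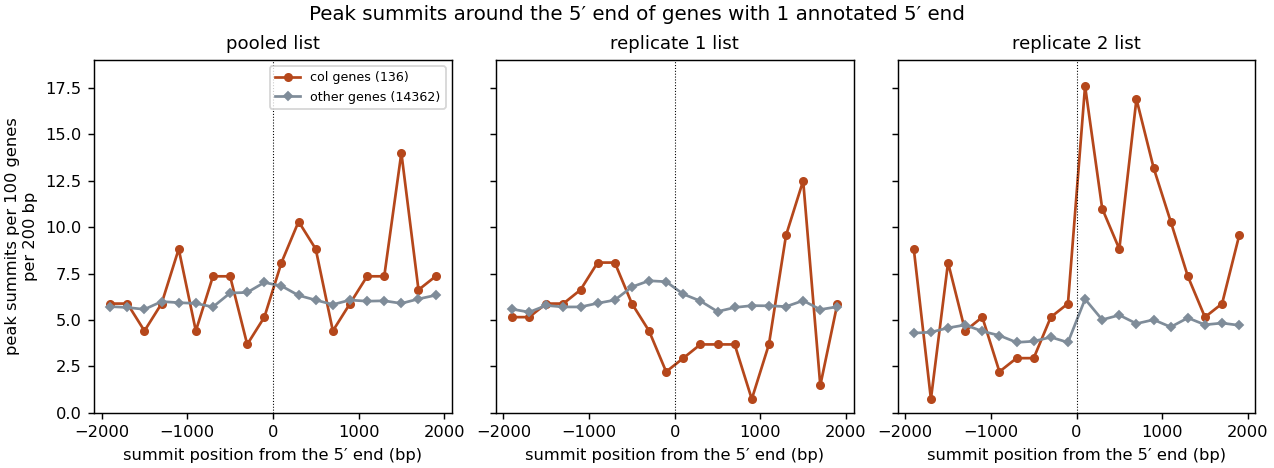
Peak summits per 100 genes in bins of 200 bp around the 5′ end, for 136 *col* genes (circles) and 14362 other genes (diamonds) with 1 annotated 5′ end. In replicate 2 the *col* genes reach 17.6 per 100 in the first bin downstream, against 6.12 in other genes, while in replicate 1 that bin holds 2.94, against 6.39. Farther down, from 1400 to 1600 bp, the *col* genes hold 12.5 against 6.04 in replicate 1 and 14 against 5.89 in the pooled list. In replicate 2 that bin holds 5.15 against 4.74.

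Whole gene bodies were counted too, a choice made after these values had been seen. In replicate 2 a summit lay in the body of 94 of 156 *col* genes, or 60.3% (interval 52.1 to 68), against 32.5% of other genes of like length and 45.1% of all genes. In replicate 1 the count was 36, or 23.1% (16.7 to 30.5), against 34.6% of like length and 48.9% of all. In the pooled list it was 66, or 42.3% (34.4 to 50.5), against 38.7% of like length and 52.7% of all. The body held a replicate 2 peak but no replicate 1 peak in 67 *col* genes (42.9%), against 20.5% of like length and 18.1% of all genes. The reverse was found in 9 (5.77%), against 22.6% of like length and 21.9% of all. Both replicates had a body peak in 27 (17.3%), against 12% of like length and 27% of all, and neither had one in 53 (34%), against 44.9% of like length and 33% of all. Of the replicate 2 summits in *col* bodies, 130 lay in exons and 9 in introns, where the median *col* body is 90.5% exon.

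Collagen coding sequence is rich in G and C, since glycine codons begin with GG and proline codons with CC. The median *col* body held 49.1% G and C (range 36.5 to 60.4), against 36.4% in other genes and 35.4% in the nuclear genome. The strongest replicate 2 peak in a *col* body lay in *col-122*, with a signal of 12.9 and rank 108. It is shown to make the composition visible: it spans chrIV:9564077-9564272 (ce11, plus strand) within a coding exon, and in-frame glycine codons are in capitals.
col-122: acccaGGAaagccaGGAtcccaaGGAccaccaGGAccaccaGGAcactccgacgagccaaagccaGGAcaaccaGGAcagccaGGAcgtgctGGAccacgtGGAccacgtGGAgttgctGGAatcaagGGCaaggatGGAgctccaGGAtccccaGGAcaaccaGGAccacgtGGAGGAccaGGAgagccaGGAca

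Of its 64 whole codons 21 (32.8%) code for glycine, and 61.7% of its bases are G or C. Across the 73 replicate 2 peaks that lay whole within a coding exon of a *col* gene outside chromosome I, glycine codons had a median share of 29.2% and G and C a median of 57.7%. Some strong peaks held few glycine codons, 4.69% in a second *col-122* peak (rank 636) and 4.62% in that of *col-119* (rank 824). Whether these peaks differ from *col* coding sequence as a whole was not tested.

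When other genes were matched both in length (within 20%) and in G and C of the body (within 2 percentage points), 106 *col* genes had at least 10 such genes. Among these the share with a body peak was 57.5% (47.6 to 67.1) in replicate 2, against 56.1% of the matched genes. It was 26.4% (18.3 to 35.9) against 27.4% in replicate 1, and 42.5% (32.9 to 52.4) against 42.6% in the pooled list. For these 106 genes, no gap of the size found at like length for all 156 was seen against genes of like composition. The like-length gap of the 106 alone was not computed. The other members had fewer than 10 matched genes and are not covered. Matches were scarce at high G and C: among bodies of 800 to 2000 bp with 52 to 56%, there were 35 *col* genes and 14 other genes. The 71 other genes that code for 20 or more Gly-X-Y triplets, with a median body G and C of 45.3%, had body peaks at 76.1% in replicate 2, 40.8% in replicate 1 and 53.5% in the pooled list; their median length was 1707 bp.

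Among genes outside the series the share ran with composition. Within the *col* genes, median body G and C was nearly the same with a replicate 2 body peak (49.2%) as without one (48.9%). For replicate 1 body peaks it was 45% with and 49.8% without. For bodies of 800 to 2000 bp, replicate 2 had a summit in 24 of 43 *col* genes with 48 to 52% G and C (55.8%), against 62.7% of 83 other genes in that range. In the range of 32 to 36% G and C there was no *col* gene, and 19.9% of 2557 other genes had one. In replicate 1 the order ran the other way, with 14% of *col* genes and 20.5% of other genes at 48 to 52%, and 40.6% of other genes at 32 to 36%. The ends of the *col* range held few genes. At 36 to 40%, 5 of 6 *col* genes had a replicate 1 body peak (83.3%) against 34% of other genes, and at 56 to 60% all 11 *col* genes had a replicate 2 body peak, as did 3 of 4 other genes.

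**Figure D5:**
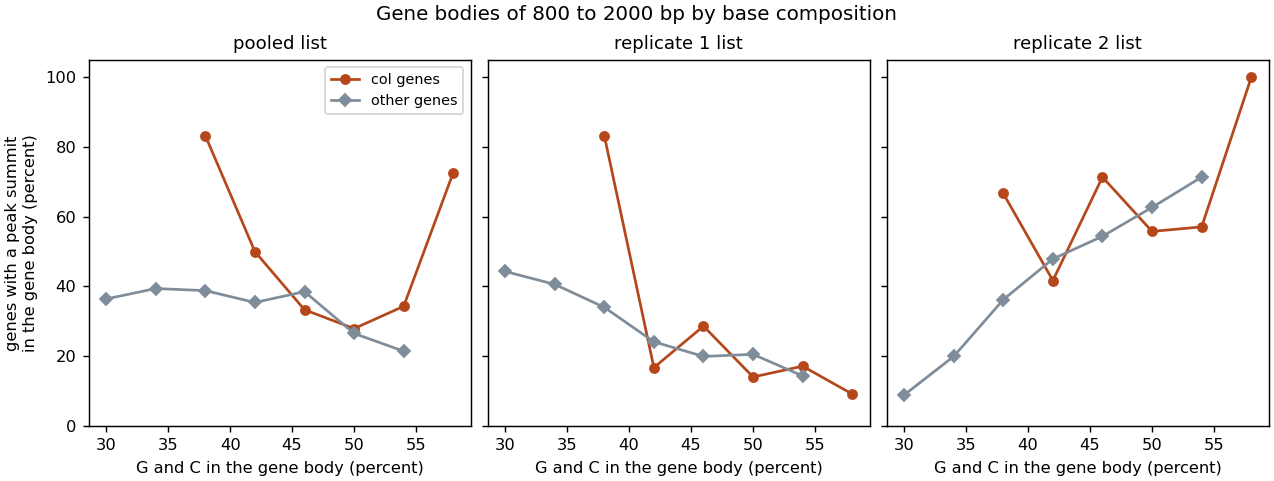
Percent of genes of 800 to 2000 bp with a peak summit in the gene body, by G and C content of the body in steps of 4 percentage points (points with at least 5 genes), for *col* genes (circles) and other genes (diamonds). The other genes climb with G and C content in replicate 2, from 8.83% at 28 to 32% up to 71.4% at 52 to 56%, and decline in replicate 1; in the fullest *col* range, 48 to 52%, the shares in replicate 2 are 55.8% of *col* genes and 62.7% of other genes.

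The strongest body peaks were those of *col-96*, *col-113* and *col-64* in the pooled list, the only ones there among the 1000 strongest. *col-96* had 18.5 in the pooled list (rank 192), 10.3 in replicate 1 and 6.53 in replicate 2. *col-113* had 15.6 in the pooled list (rank 478), 10.5 in replicate 1 and 6.61 in replicate 2. In both genes the replicate peaks overlapped, and neither gene was named by its promoter window. *col-64* had 14.3 in the pooled list (rank 805), 7.92 in replicate 1 and 8.34 in replicate 2, without overlap of the replicates.

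Overlapping body peaks of both replicates were found in 13 *col* genes (8.33%, 4.51 to 13.8), against 5.3% of like length and 9.99% of all genes. For the 106 genes matched in composition too, the shares were 7.55% in *col* genes and 9.09% in the others. The 13 also included *col-95*, with 13.5 in the pooled list, 14.5 in replicate 1 (rank 715) and 3.43 in replicate 2. These are its strongest body peaks, and that replicate 2 peak was not the one that overlapped replicate 1. Their summits lay at 11704095 in replicate 2 and 11704586 in replicate 1. *col-116* was also among the 13, with 11 in the pooled list, 11.5 in replicate 1 and 4.74 in replicate 2. Body peaks were named by their values.

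Past the annotated 3′ end, summits within 400 bp were found at 17.9% of *col* genes (12.3 to 24.9) in the pooled list, against 15.1% of other genes and 15.1% of all genes. In replicate 1 the share was 14.7% (9.58 to 21.3) against 15.6% of other genes and 15.6% of all genes, and in replicate 2 it was 8.97% (4.99 to 14.6) against 8.42% of other genes and 8.42% of all genes. The flanks showed no such gap between the replicates as the bodies did. Their median G and C content was 33.5% at *col* genes and 34% at other genes.

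The Myt1-type core was common in *col* windows, as in others. AAAGTTT, searched on both strands, was in 93 of 136 *col* windows of 1201 bp (68.4%), against 63.9% of other windows of that length. AAGTT, which AAAGTTT contains, was in 97.8% of *col* windows and 99.1% of others. Within 100 bp of summits it lay at 62.1% of pooled peaks in *col* windows and 55.6% in others, at 70.6% against 59.4% in replicate 1 and at 57.9% against 41.3% in replicate 2. Within 100 bp of summits, AAAGTTT lay at 11 of 58 pooled peaks in *col* windows (19%), against 14.3% in other windows. The shares were 25.5% against 17.3% in replicate 1 and 10.5% against 5.68% in replicate 2. GATAA, the core bound by GATA factors such as ELT-1 and ELT-3 of the hypodermis, lay at 36.2% of pooled summits in *col* windows and 38.8% in others. The shares were 49% against 40.2% in replicate 1 and 36.8% against 35% in replicate 2. TATAAA was in 87.5% of *col* windows and 80.6% of others. Within 100 bp of summits it lay at 25.9% of pooled peaks in *col* windows and 22.2% in others. The shares were 27.5% against 25% in replicate 1 and 22.8% against 11.6% in replicate 2, so AAGTT was not the only word more frequent at *col* summits.

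Other genes of cuticle assembly gave mixed values. Of 21 cuticle collagen genes named for mutant shape (*dpy*, *rol*, *sqt*, *bli* and *lon*), 6 had a pooled peak (28.6%, against 35.3% of genes with like windows). In replicate 1 the count was 12 (57.1%, interval 34 to 78.2, against 35.6%), and in replicate 2 it was 9 (42.9%, interval 21.8 to 66, against 24.1%). All 3 like-length shares lay inside the intervals of these few genes. The pooled list was led by *rol-8* at 14.4 (rank 765), *bli-1* at 12, *lon-3* at 10 and *dpy-4* at 9.34. Among these 4, *dpy-4* alone had overlapping peaks in both replicates. The widely studied *rol-6*, *dpy-7* and *dpy-5* had no peak in any of the 3 lists; they were picked with these values in view.

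Of 18 genes that process or crosslink collagen, 8 had a pooled peak (44.4%, against 38.9% of genes with like windows), 5 a replicate 1 peak (27.8%, against 39%) and 8 a replicate 2 peak (44.4%, against 28.5%). *nas-36*, a metalloprotease gene of molting, had 14 in the pooled list and 16.9 in replicate 1. The dual oxidase gene *bli-3* had 10.4 and the prolyl 4-hydroxylase gene *phy-2* had 10 in the pooled list, and *dpy-31*, which encodes a procollagen protease, had 8.36. None of the 18 had overlapping replicate peaks (interval up to 18.5%), against 5.86% of genes with like windows. The collagens outside the cuticle, 4 genes, were led by the type IV chain gene *emb-9* at 15.1, with *cle-1* at 12.8, *let-2* at 8.61 and no peak at *mec-5*.

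Of 11 cuticlin and apical matrix genes, 3 had a pooled peak (27.3%, against 34.5% of genes with like windows), *cut-1* at 10.6, *cut-5* at 8.43 and *cut-2* at 6.92. Their shares were 36.4% against 34.8% in replicate 1 and 27.3% against 23.6% in replicate 2. Of 14 regulators of the epidermis and of molting, 9 had a pooled peak (64.3%), against 57.4% of genes with like windows. They were led by the GATA factor gene *elt-6* at 12.3, the *myrf-2* gene at 9.7, *blmp-1* at 9.21 and *elt-1* at 9.2. The *elt-6* window had 13.8 in replicate 2 and no peak in replicate 1. In replicate 1 the share of the 14 regulators was 50% (interval 23 to 77), against 57.9% of genes with like windows. In replicate 2 it was 71.4% (41.9 to 91.6), against 47.1%. The replicates lay on opposite sides of the like-length share, but both like-length shares were inside the intervals of these 14 genes. The 21 cuticle collagen genes named for mutant shape lay above the like-length share in both replicates.

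Gene groups of other kinds gave the range to set beside these shares. Of 39 insulin-like peptide genes, 30.8% had a pooled peak, 25.6% a replicate 1 peak and 17.9% a replicate 2 peak, against 36.5%, 36.7% and 25.8% of genes with like windows in the same order. Of 102 FLP and NLP neuropeptide genes the shares were 51%, 47.1% and 24.5%, against 36.9%, 37.3% and 25.7%. All genes also had their lowest share in the shorter replicate 2 list. Whether such groups differ was not tested.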

How the data were processed

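Peak lists of eGFP-ZTF-11 ChIP-seq in whole L4 larvae were used, 1 group with 2 biological replicates. Fragments were 150 to 350 bp, per the labels. Relaxed peaks on each replicate and on both pooled, and a thresholded list, were made by the authors against control alignments, per the deposited descriptions. For the aligner and caller, the sources used here give no name. The signal value of each peak is the authors', on an unstated scale, and was ranked within a list only. The deposited −log10 q values were not used to select peaks. Positions are ce11 and 1-based. Genes came from Ensembl 115, sequence from RefSeq. The ce10 lists were not used here.

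Shares were set beside those of other protein-coding genes with windows within 5% of the member's length (at least 50 genes), with no test. Members and lists were chosen with earlier results of these data known. Genes named were those with 1 of the 1000 strongest pooled peaks, the 12 highest in the pooled list, up to 10 with overlapping replicate peaks, 7 stage examples and the 4 highest of each cuticle list; others are marked as named by their values. The counting was tested on simulated data. Python 3.11.15, numpy 2.4.6, scipy 1.17.1 and matplotlib 3.10.9 were used.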

Additional observations from a re-analysis of the deposited data

How the results depend on the processing

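Of 57 alternatives for 10 results, 43 stayed within the counting interval of the reported value, or within 1.5 times a count. The median pooled percentile of *col* genes, 32.7, is the tied rank of genes without a peak. It was 39.9 with windows of 500 and 100 bp, 56.3 with 2000 and 500 bp, 40.7 with peaks at or above the median signal, 32.9 at exactly the same window length, 30.5 against all genes, 29.8 for any overlap with the window and 33.3 without windows holding another 5′ end. It ranged from 32.6 to 38.3 in single replicates. The mean stayed between 47.3 and 54.4.

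The count of *col* genes with 1 of the 1000 strongest pooled peaks, 1, was 5 with the window of 2000 and 500 bp, and 1 to 4 in single replicates. In replicate 2 alone the 4 were *col-42*, *col-72*, *col-119* and *col-110*. The pooled promoter difference of -0.14 percentage points ran from -3.2 to 6.6, so it has no set direction, and neither has that of overlapping peaks, from -0.976 to 0.753. The replicate 2 difference of 9.1 stayed above 0, from 3.84 to 15.5, and that of replicate 1, -4.8, below it, from -8.24 to -0.245. Matching in G and C content was added after the data were seen. For the 106 *col* genes with enough matched genes, the gene body difference was 1.4 in replicate 2 and -0.982 in replicate 1. For all 156 at like length it was 27.7 in replicate 2 and -11.6 in replicate 1. With peaks at or above the median signal, the like-length difference of the 156 was 16.6 in replicate 2. No paired analysis was possible because there is 1 group. Depth is unknown, so weak sites missed in a list cannot be told apart from sites without signal.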
